A study of Mus musculus with 72 samples.

Results

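The 10 genes described here encode enzymes that lengthen fatty acids or place double bonds in them, at the endoplasmic reticulum: the desaturases Fads1, Fads2 and Scd2, the elongases Elovl1, Elovl2, Elovl3 and Elovl5, and Hsd17b12, Hacd3 and Tecr, which complete each round of elongation. They were chosen by symbol as the members of long and unsaturated fatty acid synthesis and taken from a table of read counts for 55573 genes, in which all 10 were found by their Ensembl identifiers. Liver RNA had been sequenced from adult male C57BL/6 mice in 4 groups of 18 libraries, 3 libraries at each of ZT2, ZT6, ZT10, ZT14, ZT18 and ZT22, where ZT is the number of hours since lights on. WT mice were Bmal1 fl/fl and LKO mice were Bmal1 fl/fl Albumin-Cre, so the floxed allele of the clock gene Bmal1 was shared by every group and the Albumin promoter drove Cre, and with it the deletion, in hepatocytes rather than in every liver cell. SPF mice carried gut microbes, and GF mice were the same genotypes rederived and kept germ free in isolators. The design asks how these genes differ with the loss of the liver clock (SPF LKO against SPF WT, GF LKO against GF WT), with the absence of microbes (GF WT against SPF WT, GF LKO against SPF LKO) and with the time of day.

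Elongation adds a pair of carbons to an acyl-CoA in 4 steps, of which the elongase catalyzes the condensation and sets which chains are accepted. HSD17B12 then reduces the 3-keto group, HACD3 removes water and TECR reduces the remaining double bond. In the liver, FADS2 and FADS1 alternate with ELOVL5 and ELOVL2 to make long polyunsaturated fatty acids from linoleic and alpha-linolenic acid, ELOVL1 and ELOVL3 extend saturated and monounsaturated chains, and SCD2 is a stearoyl-CoA desaturase that makes monounsaturated fatty acids and is better known from brain and from the liver of newborn mice than from adult liver, where Scd1 prevails. Elovl3 is known for a daily rhythm in mouse liver.

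Total counts ran from 17369927 to 22076113 per library, with a median of 19106726, and the lowest count of any of the 10 genes in any library was 74, so that all of them passed the filter on low counts in every comparison. The check of the genotype labels rested on Npas2, a paralog of the deleted gene's partner that is high after loss of Bmal1, and on the Bmal1 transcript itself (Arntl in the annotation). Npas2 was between 16.8 and 44.7 CPM (each library scaled to the same total count) in GF LKO and at most 12.9 CPM in GF WT, but of the libraries labelled SPF LKO, ZT14 replicate 2 had 0.220 CPM and ZT18 replicate 1 had 1.81 CPM, against a median of 24.8 CPM in SPF LKO. In the latter, Arntl was 28.99 CPM, where the other SPF LKO libraries of ZT18 had 11.5 and 11.9 CPM. Dbp, an output gene of the clock, was 67.5 CPM in replicate 3 labelled SPF WT ZT14, against 7.72 and 4.25 CPM in its partners, and 16.3 CPM in replicate 3 labelled GF WT ZT6, where the partners had 59.5 and 43.1 CPM, so these 2 libraries went against their labelled ZT. The values below include these 4 libraries, and calls that changed without them are given beside the result. Of the hepatocyte markers, Alb differed between genotypes, with medians of 83211 CPM in WT and 36647 CPM in LKO of SPF mice and 104969 and 32081 CPM in those of GF mice, while the summed level of the other 5 had medians of 19135, 19455, 26140 and 25486 CPM in the same order. Of these 5 taken singly, 1 was called higher in SPF LKO, and 1 was called higher and 1 lower in GF LKO. Summed markers of pancreatic acinar cells were also higher in LKO (medians of 28.6, 78.2, 46.1 and 107 CPM, with 0, 1, 0 and 3 of the 5 markers at 0 in all libraries of a group), as were those of cholangiocytes (53.7, 70.6, 43.8 and 90.7 CPM). Of the 5 acinar markers, only 1 in SPF and 2 in GF mice passed the filter on low counts, and these were called higher. Of the 5 cholangiocyte markers, 1 was called higher in SPF LKO and 2 in GF LKO, and none lower. Summed Kupffer cell markers had lower medians in LKO (241, 205, 216 and 180.0 CPM in the same order). Of the 5 Kupffer markers, 3 were called lower in SPF LKO and 1 in GF LKO, and none higher. Medians for endothelial cells (155 to 162 CPM), stellate cells (269 to 309 CPM), lymphocytes (8.01 to 13.3 CPM) and adipocytes (11.04 to 13.1 CPM, with 1 of 5 markers at 0 in all groups) are given as the range over the 4 groups. Of the sex-linked genes, Xist had at most 8 counts and Ddx3y at least 1390 counts in any library. The part of these differences in the results was not tested, and in whole liver fewer cells of a type and less RNA per cell cannot be told apart.

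A group of 4 of the genes lies on chromosome 19 of GRCm38. Fads2 (19:10062765-10101746, minus strand) and Fads1 (19:10182888-10196877, plus strand) face away from each other across 81141 bases, and Scd2 (19:44293674-44306864) and Elovl3 (19:46131897-46135694) lie farther along the plus strand. Elovl1 is at 4:118428093-118432953, Elovl2 at 13:41182381-41220405, Elovl5 at 9:77917364-77984519, Hacd3 at 9:64986983-65021693, Tecr at 8:83571698-83607971 and Hsd17b12 at 2:94032689-94157964. Exons of Elovl1 share 53 bases with Cdc20 and those of Elovl3 share 10 bases with Pitx3, both on the opposite strand, and Scd2 shares 61 bases with Mir5114. No strand or overlap option is given for the counting, so reads in these bases, at most 1.94% of the exon bases of a member, are uncertain.

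Promoter windows of 250 bases before the RefSeq start (GRCm38.p6) were at hand for 7 of the 10 genes, Fads2, Elovl1, Elovl2, Elovl5, Tecr, Hacd3 and Hsd17b12. The E-box CACGTG, the palindrome bound by BMAL1 with its partners, was found on searching both strands in the windows of 2 of them, Elovl5 and Hacd3, and in 6.02% of 32851 windows of all genes. These 2 sequences are shown because both held the E-box and both genes differed in rhythm between LKO and WT in GF mice, as did Fads2 and Elovl3. They were picked after the calls were seen. With ZT as 6 levels neither Elovl5 nor Hacd3 passed (adjusted p = 0.0689 and 0.0797 by edgeR). A link between the E-box and the rhythm was not tested. The Fads2 window held no E-box. Only 7 of its 250 bases lay before the start of the gene in the annotation used for counting, as in window 2 of Elovl2. For Elovl3 no window was at hand. The 2 sequences shown run 5′ to 3′ in the direction of transcription and stop before the start of the gene in that annotation, at chr9:77917115-77917363 (plus strand) for Elovl5 and chr9:65021718-65021967 (minus strand) for Hacd3. Capitals mark the E-box and the CCAAT box (CCAAT, or ATTGG on the opposite strand), which do not overlap.
Elovl5: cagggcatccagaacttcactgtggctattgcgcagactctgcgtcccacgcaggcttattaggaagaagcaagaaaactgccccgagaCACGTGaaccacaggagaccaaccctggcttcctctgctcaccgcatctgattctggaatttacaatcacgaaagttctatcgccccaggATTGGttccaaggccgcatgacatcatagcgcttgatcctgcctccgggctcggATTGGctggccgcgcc
Hacd3: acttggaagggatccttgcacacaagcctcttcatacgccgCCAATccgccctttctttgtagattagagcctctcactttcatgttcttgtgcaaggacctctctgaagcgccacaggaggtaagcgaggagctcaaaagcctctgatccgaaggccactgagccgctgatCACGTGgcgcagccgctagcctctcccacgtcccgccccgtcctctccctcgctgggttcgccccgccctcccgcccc
The CCAAT box was in a window of 5 members (Elovl1, Elovl5, Tecr, Hacd3 and Hsd17b12) and in 33.8% of all windows, and the nuclear receptor half-site AGGTCA was in 1 of 2 windows of Elovl1 and in 14% of all windows. The Tecr window and the Elovl1 window with the half-site lay wholly within the gene as annotated for counting. No window of the 7 genes held the D-box TTATGTAA (0.819% of all windows), a direct repeat of that half-site with a spacer of 1 base (0.0335%) or the sterol element TCACNCCAC (1.05%). A match is a run of letters and was not tested as a binding site.

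Per kilobase of exon, Elovl3 was the most abundant of the 10 genes, at a median of 703 RPKM (CPM divided by exon length) over the 72 libraries, and also the most variable, from 37.98 to 1344 RPKM. Elovl2, Fads2 and Elovl5 followed at medians of 163, 154 and 150 RPKM, and their ranges over libraries overlapped throughout. Hacd3, Hsd17b12 and Fads1 were next at 89.9, 89.8 and 78.5 RPKM, also without separation, and Tecr stood at 46.2 RPKM. Elovl1 had a median of 14.0 RPKM, and Scd2 was the lowest at 1.74 RPKM, with a range from 0.827 to 14.1 RPKM. The means of the 24 combinations of group and ZT spanned 4.43 log2 units for Elovl3 and 3.06 for Scd2, against 0.56 for Hsd17b12 and 0.61 for Hacd3.

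In SPF mice, 4 of the 10 genes differed between LKO and WT over all ZT, where 23.1% of all 13159 genes tested did (11.6% higher and 11.5% lower in LKO). Elovl3 and Scd2 were higher in LKO, by 2.77- and 2.67-fold, and the front-end desaturases Fads1 and Fads2 were lower, at 0.762 and 0.620 times the WT level. In GF mice, 6 of the 10 differed, against 30.8% of 12662 genes (15.6% higher and 15.2% lower): Elovl3 (2.31-fold) and Scd2 (4.92-fold) were again higher in LKO, and Fads1 (0.594), Fads2 (0.487), Hacd3 (0.864) and Hsd17b12 (0.837) were lower. Genes were called at a Benjamini-Hochberg adjusted p under 0.05 over all genes in edgeR's quasi-likelihood test, and each group's 18 libraries span 6 times of day, so their spread includes the daily rhythm. The median log2 fold change of the 10 genes was 0.03 in SPF and 0.07 in GF mice, beside -0.01 and 0.01 for all genes tested.

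**Figure D1:**
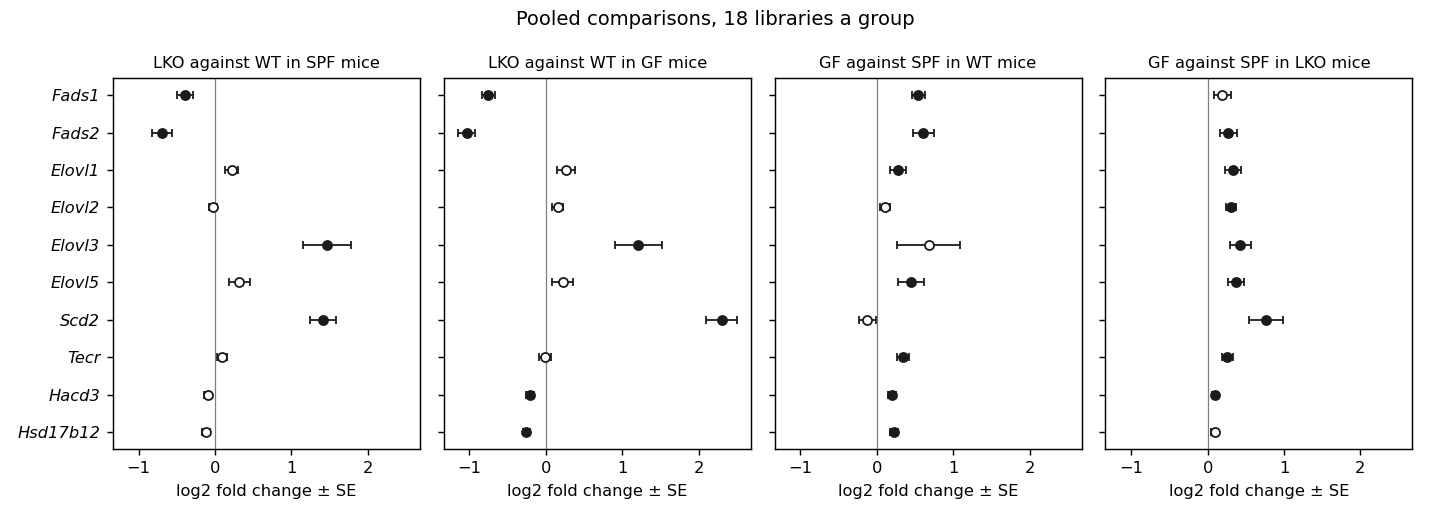
Log2 fold change of each gene in the 4 pooled comparisons, 18 libraries against 18. Points are edgeR estimates, bars are standard errors and filled points passed an adjusted p of 0.05. Elovl3 and Scd2 lie to the right and Fads1 and Fads2 to the left of 0 in both genotype panels, and in the panel of GF against SPF in WT mice every gene but Scd2 lies to the right of 0.

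Elovl3 ran from 75.01 to 1621 CPM in SPF WT with a median of 379 CPM, and from 403 to 2233 CPM in SPF LKO with a median of 1553 CPM. Of the SPF LKO libraries 8 lay above the highest SPF WT library, and the lowest, at 403 CPM, was the library labelled SPF LKO ZT14 replicate 2. In GF mice the range was 107 to 1991 CPM in WT, with a median of 763 CPM, and 1344 to 2654 CPM in LKO, with a median of 2089 CPM. The pooled log2 difference was 1.47 ± 0.31 (SE, n = 18 a group, adjusted p = 0.000533) in SPF and 1.21 ± 0.31 (adjusted p = 0.00248) in GF mice, and without the 4 libraries that went against their labels it was 1.53 ± 0.31 in SPF mice.

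The size of this difference depended on the hour. At ZT10 the 3 SPF WT libraries had 158, 75.01 and 116 CPM of Elovl3 and the 3 SPF LKO libraries had 1485, 1412 and 1573 CPM. In GF mice at ZT10, WT libraries had 107, 153 and 111 CPM and LKO libraries 1369, 2243 and 1923 CPM. Every LKO library was above every WT library at this hour, by 3.68 ± 0.26 on the log2 scale for SPF mice (adjusted p = 5.71e-07) and 3.9 ± 0.26 for GF mice (adjusted p = 2.4e-07). At ZT22 the SPF WT libraries reached 1621, 1189.5 and 749.8 CPM against 1812, 1533 and 1784 CPM in SPF LKO, where the groups overlapped. Called differences of Elovl3 fell at ZT2, ZT6 and ZT10 in SPF and at ZT6, ZT10 and ZT14 in GF mice, all with LKO higher. The call at ZT14 in GF mice was lost without GF WT ZT14 replicate 3 (adjusted p = 0.052). Every GF LKO library lay above every GF WT library at each of the 6 ZT. At ZT2, ZT18 and ZT22 the adjusted p in GF mice was 0.0656, 0.393 and 0.312 by edgeR, and DESeq2 called ZT2 (adjusted p = 0.0114). At ZT14 in SPF mice the 3 WT libraries (239, 369 and 244 CPM) lay below the 3 LKO libraries (2016, 403 and 2224 CPM), with a log2 difference of 2.44 ± 0.46 that missed the threshold (adjusted p = 0.117). Without the library of 403 CPM it was 2.89 ± 0.19 (adjusted p = 4.39e-06).

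Scd2 was low in WT livers of either kind, between 4.52 and 10.7 CPM in SPF WT (median 6.64 CPM) and between 4.59 and 9.78 CPM in GF WT (median 6.66 CPM). In LKO livers it ran from 5.28 to 29.7 CPM in SPF (median 20.3 CPM) and from 12.1 to 77.1 CPM in GF mice (median 26.5 CPM). All 18 GF LKO libraries lay above the highest GF WT library, and 14 of 18 SPF LKO libraries lay above the highest SPF WT library. Of the other 4, the 2 lowest, 5.28 and 8.42 CPM, were the libraries labelled SPF LKO ZT14 replicate 2 and ZT18 replicate 1. The pooled log2 differences were 1.42 ± 0.17 for SPF mice (adjusted p = 5.78e-08; 1.51 ± 0.14 without the 4 libraries) and 2.30 ± 0.20 for GF mice (adjusted p = 3.47e-12). Within single hours Scd2 was higher in LKO at all 6 ZT in GF mice, with log2 differences from 1.74 at ZT6 to 2.83 at ZT22, and at ZT2, ZT6, ZT10 and ZT22 in SPF mice, with differences from 1.37 to 1.94. The call at ZT14 in GF mice was lost when 1 of 5 libraries was left out (adjusted p up to 0.0944), and that at ZT10 in SPF mice when 1 of 4 was (up to 0.154).

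The spread among GF LKO libraries was wide for this gene. At ZT18 they had 43.1, 20.5 and 77.1 CPM and at ZT14 25.8, 44.1 and 12.1 CPM, where GF WT libraries of ZT14 had 8.003, 8.22 and 7.66 CPM. Even the lowest LKO library was above all 3 WT libraries at each ZT.

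Fads1 ran from 258 to 543 CPM in SPF WT (median 407 CPM) and from 178 to 496 CPM in SPF LKO (median 287 CPM). In GF mice the ranges were 398 to 754 CPM in WT (median 600.5 CPM) and 228 to 488 CPM in LKO (median 343 CPM). Of the SPF LKO libraries 5 lay below the lowest SPF WT library and 14 GF LKO libraries below the lowest GF WT library, while the 2 highest values of SPF LKO, 496 and 495 CPM, belonged to the libraries labelled ZT14 replicate 2 and ZT18 replicate 1. Its log2 difference was -0.39 ± 0.11 for SPF mice (adjusted p = 0.00702) and -0.75 ± 0.09 for GF mice (adjusted p = 1.08e-08), and -0.48 ± 0.09 in SPF mice without the 4 libraries.

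Fads2, which shares the chromosomal neighborhood of Fads1 and acts before it in the same chain, followed the same direction. It ran from 347 to 956 CPM in SPF WT (median 631 CPM) against 272 to 724 CPM in SPF LKO (median 339 CPM), and from 450.4 to 1672 CPM in GF WT (median 995 CPM) against 350.3 to 678 CPM in GF LKO (median 453 CPM). For this gene 10 SPF LKO libraries and 9 GF LKO libraries lay below the lowest WT library of their kind. The log2 differences were -0.69 ± 0.13 for SPF mice (adjusted p = 0.000143) and -1.04 ± 0.12 for GF mice (adjusted p = 2.62e-09), and the former was -0.81 ± 0.10 without the 4 libraries. At ZT14 the GF WT libraries had 1178, 1244 and 1162 CPM of Fads2 and the GF LKO libraries 448, 408 and 422 CPM, with no overlap and a log2 difference of -1.48 ± 0.29 (adjusted p = 0.0146), a call that was lost when 1 of 4 libraries was left out (adjusted p up to 0.0639). In SPF mice at ZT14 the LKO libraries had 280.0, 724 and 339.8 CPM against 641, 877 and 956 CPM in WT, and the call depended on the library of 724 CPM: the log2 difference was -0.89 ± 0.28 with it (adjusted p = 0.298) and -1.42 ± 0.16 without it (adjusted p = 0.000354). Over the 24 means of group and ZT, Spearman's rho between Fads1 and Fads2 was 0.903, the highest of the 45 pairs of members. The 24 means share libraries and scaling between genes, and no test was made of it.

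**Figure D2:**
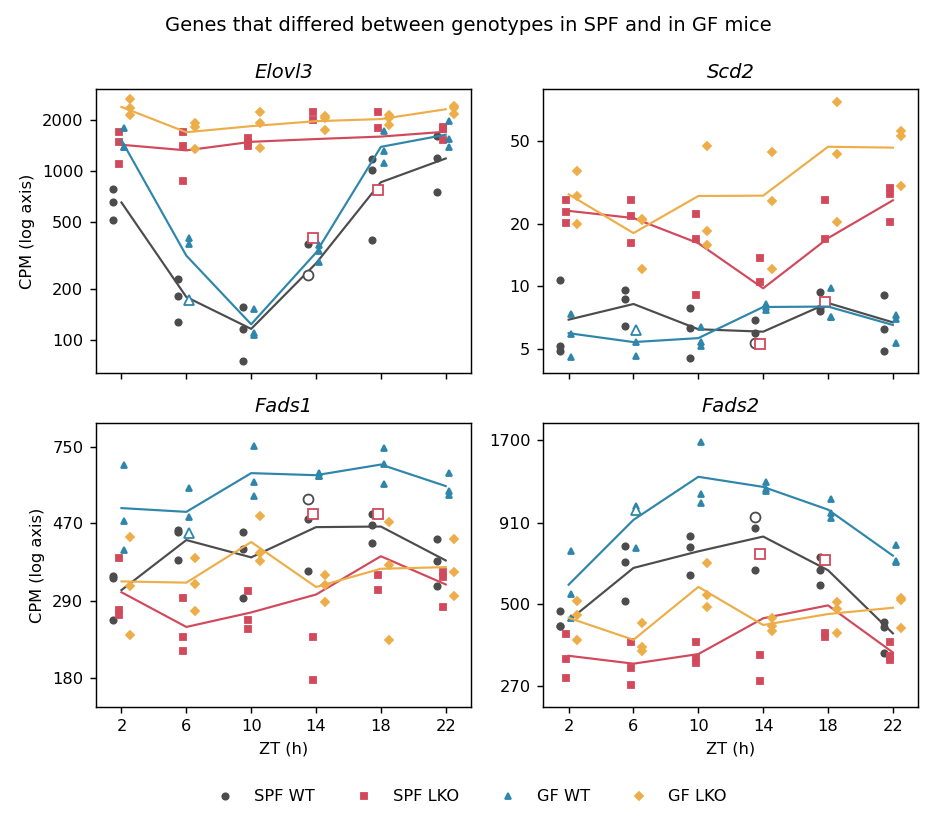
CPM of Elovl3, Scd2, Fads1 and Fads2 in each of the 72 libraries by ZT, on log axes. Points are libraries, lines join the means of 3 libraries and open symbols are the 4 libraries that went against their labels. WT lines of Elovl3 drop to 116 CPM in SPF and 124 CPM in GF mice at ZT10 while LKO libraries of that hour have 1369 CPM or more, and GF LKO points of Scd2 all lie above the GF WT points.

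Of the elongases, Elovl1, Elovl2 and Elovl5 did not pass the pooled genotype test in SPF or GF mice. Elovl5 had medians of 401 CPM in SPF WT and 508 CPM in SPF LKO, a log2 difference of 0.32 ± 0.14 (adjusted p = 0.0976). It differed at ZT10 alone among the 6 hours in either kind of mouse: SPF WT libraries had 186, 301 and 254 CPM and SPF LKO libraries 599, 423 and 493 CPM, and in GF mice the WT libraries had 295, 309.8 and 623 CPM and the LKO libraries 1079.6, 623 and 811 CPM. The groups did not overlap in either kind of mouse, although GF WT replicate 3 came within 1 CPM of the lowest LKO library, and the log2 difference was 1.03 ± 0.28 in both (adjusted p = 0.0264 and 0.0222). Either call was lost when 1 of 4 libraries was left out, with an adjusted p of up to 0.11 in SPF and 0.108 in GF mice. Elovl1 had log2 differences of 0.22 ± 0.09 and 0.26 ± 0.12 and Elovl2 of -0.02 ± 0.05 and 0.15 ± 0.07 in SPF and GF mice, with groups that overlapped.

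The enzymes that complete the cycle differed little. Hsd17b12, the 3-ketoacyl-CoA reductase, had medians of 252 CPM in GF WT (223 to 304 CPM) and 214 CPM in GF LKO (177 to 264 CPM), with 14 GF LKO libraries below the lowest GF WT library and a log2 difference of -0.26 ± 0.05 (adjusted p = 2.41e-05). Hacd3, a 3-hydroxyacyl-CoA dehydratase, had medians of 293 and 245 CPM in the same groups, which overlapped, and a difference of -0.21 ± 0.05 (adjusted p = 0.00125). In SPF mice neither passed the test (log2 differences of -0.11 ± 0.05 and -0.10 ± 0.04), though Hacd3 did without the 4 libraries (-0.12 ± 0.04, adjusted p = 0.044). Tecr, the enoyl-CoA reductase, had log2 differences of 0.09 ± 0.07 and -0.01 ± 0.08 in SPF and GF mice.

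Within single hours, 11 of 60 tests of a member at a ZT passed in SPF mice, 8 with LKO higher and 3 with LKO lower, where 4.92% of all such tests over all genes did. In GF mice 21 of 60 passed, 10 higher and 11 lower, against 7.99% of all tests. From ZT2 to ZT22 the share of all genes called was 6.89%, 7.26%, 11.9%, 0%, 0.015% and 3.31% in SPF and 4.21%, 11.7%, 13.1%, 6.1%, 8.43% and 4.44% in GF mice. No member passed at ZT14 or ZT18 in SPF mice in the main edgeR fit of each ZT (at an unadjusted p under 0.05 there were 2 and 3). By DESeq2 1 and 0 passed, by edgeR with no filter on low counts 3 and 2, and by edgeR in 1 fit of 24 means 2 and 0. These are the hours of the 2 libraries labelled SPF LKO that went against their labels, where 0 and 2 genes of all tested were called in the main fit. Without those 2 libraries, Fads1, Fads2, Elovl1 and Elovl3 passed at ZT14 and Fads2 at ZT18, and Elovl1 was lost again when replicate 3 labelled SPF WT ZT14 was left out too (adjusted p = 0.0721). In GF mice at ZT14, where the fit shares its spread with the SPF libraries, Fads1 and Hacd3 passed without the 2 libraries (adjusted p = 0.00126 and 0.0412) and Hsd17b12 without the 4 (adjusted p = 0.0498).

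**Figure D3:**
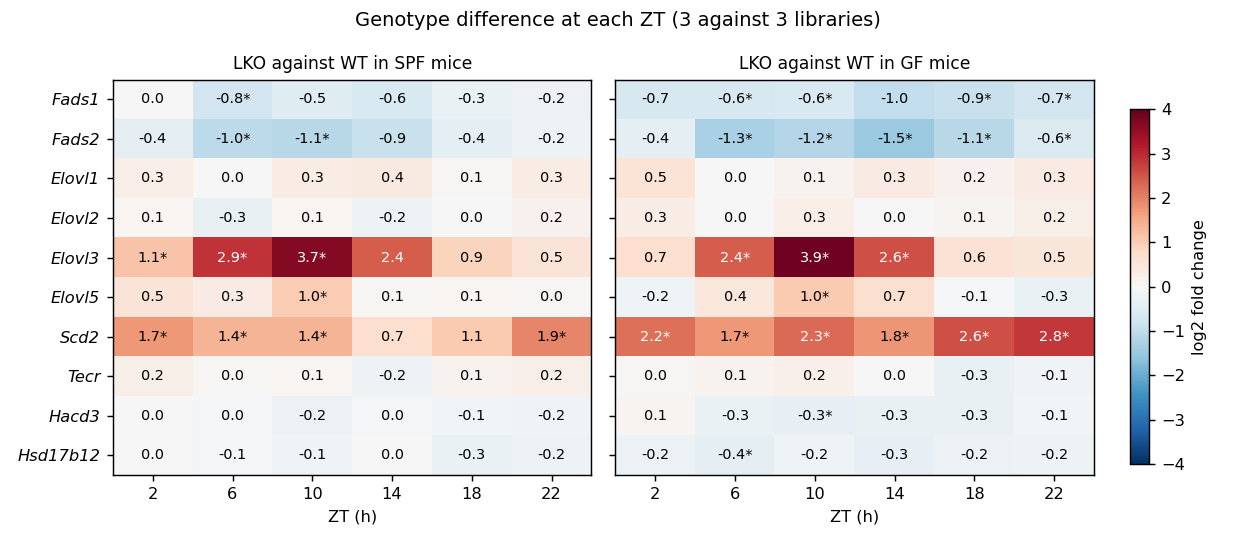
Log2 fold change of LKO against WT for each gene at each ZT, from edgeR on 3 against 3 libraries, in SPF and GF mice. Stars mark an adjusted p under 0.05. Elovl3 is highest at ZT10 with 3.68 in SPF and 3.9 in GF mice, and the row of Scd2 is positive at every ZT.

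The genotype difference itself was compared between GF and SPF mice in 1 fit of all 72 libraries. None of the 10 genes passed (0.438% of 13484 genes did), by edgeR or by DESeq2, and 3 had an unadjusted p under 0.05. The largest was that of Scd2, whose log2 fold change in LKO exceeded that in SPF mice by 0.88 ± 0.26 in GF mice (unadjusted p = 0.00126, adjusted p = 0.164). Fads1 had -0.37 ± 0.14 (adjusted p = 0.48), Fads2 -0.35 ± 0.18 (adjusted p = 0.785) and Elovl3 -0.27 ± 0.45 (adjusted p = 0.987).

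Absence of microbes went with higher levels of most of the genes. In WT mice, 7 of 10 were higher in GF than in SPF mice and none was lower, where 31.8% of 12776 genes differed, 14.2% higher and 17.7% lower. In LKO mice 8 of 10 were higher and none lower, against 36.4% of 13010 genes differing, 18.1% higher and 18.4% lower. The median log2 difference of the 10 genes was 0.31 in WT and 0.29 in LKO mice, beside -0.02 in both for all genes tested. The GF and SPF mice also differed in the summed level of 5 hepatocyte markers, given above, and the part of that difference was not tested. GF mice had been rederived and were kept in isolators, so housing and colony cannot be told apart from the absence of microbes.

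Fads1 (1.46-fold) and Fads2 (1.52-fold) had the largest called differences in WT mice. For Fads1 14 GF WT libraries and for Fads2 10 lay above the highest SPF WT library, and the log2 differences were 0.54 ± 0.08 (adjusted p = 8.33e-06) and 0.61 ± 0.14 (adjusted p = 0.00102). At ZT10, GF WT libraries had 603, 555 and 754 CPM of Fads1 against 296, 399 and 443 CPM in SPF WT, and 1058, 1135 and 1672 CPM of Fads2 against 621, 831 and 764 CPM. Neither gene overlapped between the groups at that hour, and both passed (log2 differences of 0.74 ± 0.17 and 0.79 ± 0.18, adjusted p = 0.0327 and 0.0323). Both calls were lost with the replicate block (adjusted p = 0.0517 and 0.0524) and when 1 of 5 libraries for Fads1 or 1 of 4 for Fads2 was left out (up to 0.128 and 0.121), and that of Fads1 in 1 fit of 24 means (0.0835). Fads2 also passed at ZT22, where GF WT had 689, 775 and 682 CPM and SPF WT 419, 347 and 436 CPM, a call that was lost when 1 of 3 libraries was left out (adjusted p up to 0.0914). Without the libraries that went against their labels it passed at ZT18 and ZT14 too (adjusted p = 0.0211 and 0.0356). In LKO mice Fads2 was higher by 0.27 ± 0.11 (adjusted p = 0.0427) and Fads1 by 0.19 ± 0.11 (adjusted p = 0.176), and without the 2 libraries labelled SPF LKO that went against their labels both passed, at 0.44 ± 0.07 and 0.31 ± 0.10 (adjusted p = 1.34e-05 and 0.0113).

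The elongases differed less evenly. Elovl5 was higher in GF mice by 0.45 ± 0.17 in WT (adjusted p = 0.0376) and 0.37 ± 0.10 in LKO (adjusted p = 0.00545), and Elovl1 by 0.28 ± 0.11 (adjusted p = 0.0423) and 0.33 ± 0.10 (adjusted p = 0.0114). Elovl2 passed in LKO (0.30 ± 0.06, adjusted p = 0.000446), where 9 GF libraries lay above the highest SPF library, and not in WT mice (0.11 ± 0.06). Elovl3 passed in LKO (0.43 ± 0.14, adjusted p = 0.0122), and in WT mice its difference of 0.68 ± 0.42 did not pass (adjusted p = 0.212) against a spread that includes its daily rhythm. With ZT in the model as a covariate it passed there (adjusted p = 0.00269). At ZT2 Elovl3 was higher in GF mice in both genotypes, at 1791, 1383 and 1396 CPM in GF WT against 512, 656 and 787 CPM in SPF WT and at 2654, 2162 and 2375 CPM in GF LKO against 1493, 1696 and 1105 CPM in SPF LKO, and GF and SPF did not overlap in either genotype. The call in LKO mice (adjusted p = 0.0239) was lost in 1 fit of 24 means (adjusted p = 0.170) and when 1 of 4 libraries was left out (up to 0.0979). In WT mice Elovl3 also passed at ZT6 without the 4 libraries (adjusted p = 0.0401).

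Scd2 passed in LKO and not in WT mice. It had medians of 6.64 and 6.66 CPM in SPF WT and GF WT, a log2 difference of -0.13 ± 0.11 (adjusted p = 0.399), and in LKO mice it was higher in GF by 0.77 ± 0.22 (adjusted p = 0.00668), with 8 GF LKO libraries above the highest SPF LKO library. The test of the difference between these effects is the one of the genotype difference given above (adjusted p = 0.164).

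Among the remaining enzymes of the cycle, Tecr was higher in GF mice by 0.35 ± 0.08 in WT (adjusted p = 0.000617) and 0.26 ± 0.07 in LKO mice (adjusted p = 0.00425), with medians of 89.8 and 119.9 CPM in SPF WT and GF WT. Hacd3 was higher by 0.20 ± 0.06 (adjusted p = 0.00597) and 0.09 ± 0.04 (adjusted p = 0.0446). Hsd17b12 was higher by 0.23 ± 0.05 in WT mice (adjusted p = 0.00123), where 7 GF WT libraries lay above the highest SPF WT library, and by 0.09 ± 0.04 in LKO mice (adjusted p = 0.0919). Without the 2 libraries labelled SPF LKO that went against their labels Hsd17b12 passed in LKO mice too (0.11 ± 0.04, adjusted p = 0.0419), and 10 members in place of 8 were called there. Hour by hour, 7 of 60 tests passed in WT mice against 2.89% of all tests, and 2 of 60 in LKO mice against 2.71%, Elovl3 at ZT2 and Elovl1 at ZT18. The latter call (adjusted p = 0.0394) was lost without the 2 libraries labelled SPF LKO that went against their labels (adjusted p = 0.109) and when 1 of 9 libraries was left out. From ZT2 to ZT22 the share of all genes called was 10.1%, 2.62%, 2.89%, 0.0751%, 0.983% and 0.516% in WT and 8.92%, 0.309%, 0.982%, 0.0601%, 3.71% and 2.25% in LKO mice.

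**Figure D4:**
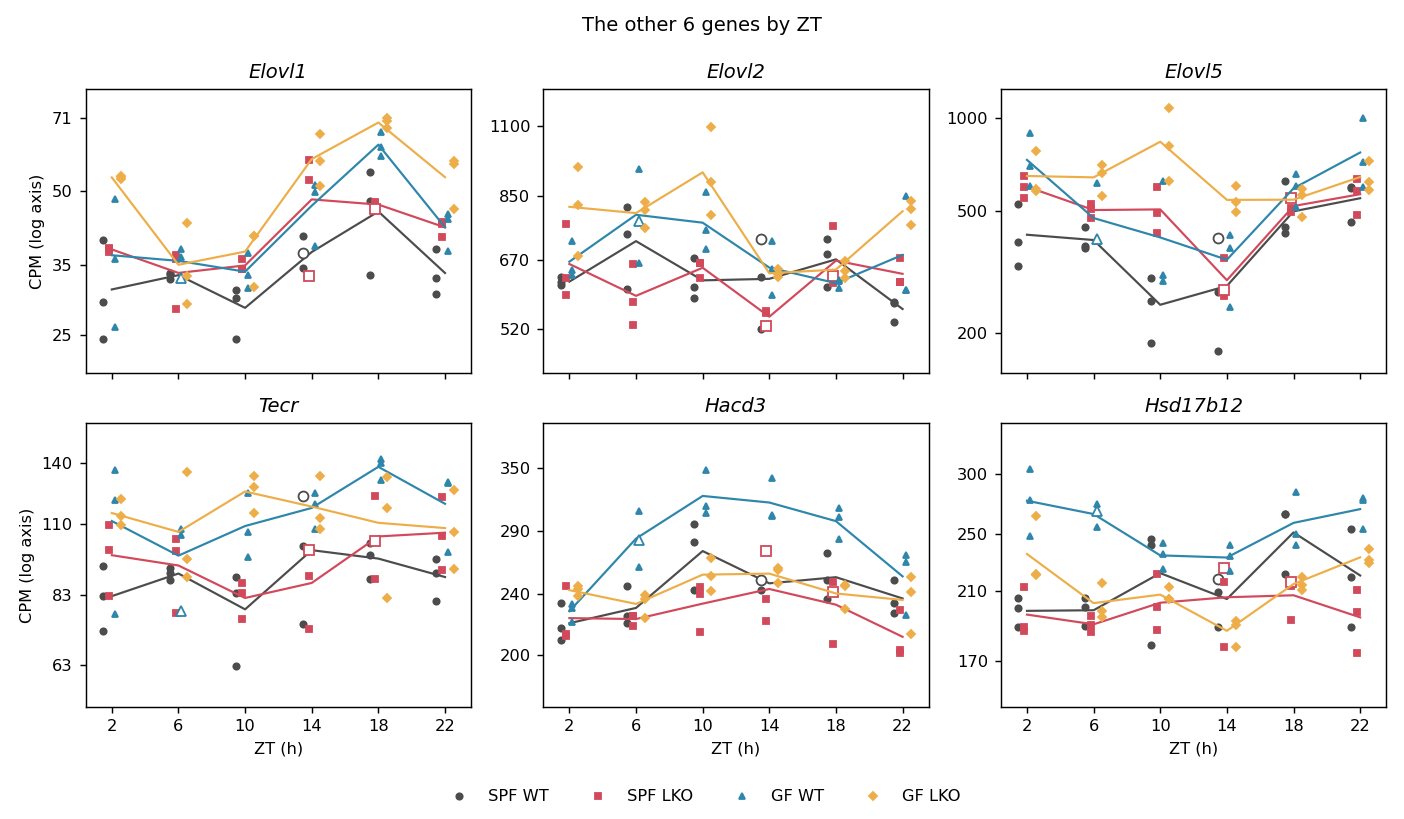
CPM of Elovl1, Elovl2, Elovl5, Tecr, Hacd3 and Hsd17b12 in each of the 72 libraries by ZT, on log axes that differ between panels. Points are libraries, lines join the means of 3 libraries and open symbols are the 4 libraries that went against their labels. GF means lie above SPF means of the same genotype at 5 or 6 of the 6 hours for each gene, and Elovl1 is highest at ZT14 or ZT18 in every group.

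A rhythm of 24 h was tested as the cosine and sine of ZT within each group. In SPF WT, 3 of 10 genes passed (Fads2, Elovl3 and Elovl5), where 16.9% of 12099 genes did, and in GF WT 7 passed (Fads2, Elovl1, Elovl3, Elovl5, Scd2, Hacd3 and Hsd17b12) against 29.4% of 11650 genes. In SPF LKO 3 passed (Elovl1, Elovl5 and Scd2) against 24.5%, and in GF LKO 4 passed (Elovl1, Elovl2, Scd2 and Hsd17b12) against 38.6%. A gene that passed in 1 group only is not thereby shown to differ between groups, and the differences were tested separately.

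Elovl3 had the widest daily range. Its means in SPF WT ran from 116 CPM at ZT10 to 1187 CPM at ZT22, and in GF WT from 124 to 1641 CPM at the same hours. Fitted amplitudes in WT were 1.70 ± 0.17 log2 units with microbes and 1.98 ± 0.16 without, with peaks at ZT21.4 and ZT22.0. In LKO the means ran from 1326 to 1710 CPM in SPF and from 1698 to 2397 CPM in GF mice, with amplitudes of 0.13 ± 0.21 and 0.21 ± 0.07, the latter at an adjusted p of 0.053 by edgeR and 0.0496 by DESeq2. Without the 2 libraries labelled SPF LKO that went against their labels, Elovl3 passed the rhythm test in SPF LKO (adjusted p = 0.0168) with an amplitude of 0.36 ± 0.09 and a fitted peak at ZT16.9. The rhythm of Elovl3 differed between LKO and WT in SPF mice with an adjusted p of 0.000357, where 1.12% of genes differed, and in GF mice with an adjusted p of 8.34e-09, where 6.38% did.

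The fitted peaks of Fads2 fell earlier than those of Elovl3. Its means were highest at ZT14 in SPF WT (825 CPM) and at ZT10 in GF WT (1288 CPM), and lowest at ZT22 (400.4 CPM) and ZT2 (576 CPM). Amplitudes in WT were 0.51 ± 0.08 with microbes and 0.56 ± 0.08 without, with fitted peaks at ZT12.0 and ZT12.6, and it was 0.26 ± 0.12 in SPF LKO and 0.06 ± 0.08 in GF LKO. The difference in rhythm between genotypes passed in GF mice (adjusted p = 0.00997) and not in SPF mice (adjusted p = 0.146), where it did pass without the 4 libraries (adjusted p = 0.00255) and the amplitude in SPF LKO was 0.09 ± 0.06. Fads1 peaked in the fits at ZT14.6 and ZT15.7 in the WT groups with amplitudes of 0.21 ± 0.09 and 0.22 ± 0.07, and passed in no group by edgeR, while DESeq2 called it in GF WT (adjusted p = 0.0455), as did edgeR with no filter on low counts (adjusted p = 0.0439).

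Elovl5 peaked late in the night in the WT groups, at ZT22.6 and ZT23.4, with amplitudes of 0.55 ± 0.13 and 0.60 ± 0.12. In SPF LKO the amplitude was 0.37 ± 0.09 with a fitted peak at ZT1.35, and the difference from SPF WT did not pass (adjusted p = 0.361). In GF LKO the amplitude was 0.18 ± 0.09 with a fitted peak at ZT6.62, and the difference from GF WT passed (adjusted p = 0.00607). Hacd3 peaked at ZT12.7 in GF WT with an amplitude of 0.24 ± 0.03, from 228 CPM at ZT2 to 322 CPM at ZT10. The amplitude was 0.05 ± 0.02 in GF LKO, and the difference in rhythm passed too (adjusted p = 0.0263). With ZT as 6 levels in place of the cosine, neither Elovl5 (adjusted p = 0.0689) nor Hacd3 (adjusted p = 0.0797) passed.

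The fitted peaks of Elovl1 were close in all groups. They fell at ZT17.8 in both SPF groups and GF WT and at ZT19.0 in GF LKO, with amplitudes of 0.23 ± 0.08, 0.26 ± 0.06, 0.38 ± 0.08 and 0.46 ± 0.08. At ZT18 the GF LKO libraries had 70.7, 69.8 and 67.4 CPM, all above the highest GF WT library (66.3 CPM), and the SPF LKO libraries had 45.7, 47.4 and 47.1 CPM. Scd2 had amplitudes of 0.65 ± 0.18 in SPF LKO and 0.61 ± 0.23 in GF LKO, with peaks at ZT1.46 and ZT20.0, against 0.06 ± 0.13 and 0.30 ± 0.07 in the WT groups. The rhythm of neither gene differed between genotypes by its test. Between GF and SPF mice no member differed in rhythm, in WT (1 with an unadjusted p under 0.05, 0 called by DESeq2, where 0.047% of all genes were called by edgeR) or in LKO mice (5 with an unadjusted p under 0.05, 1 called by DESeq2, against 5.34%). An amplitude cannot fall below 0, so small ones carry an upward bias.

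**Figure D5:**
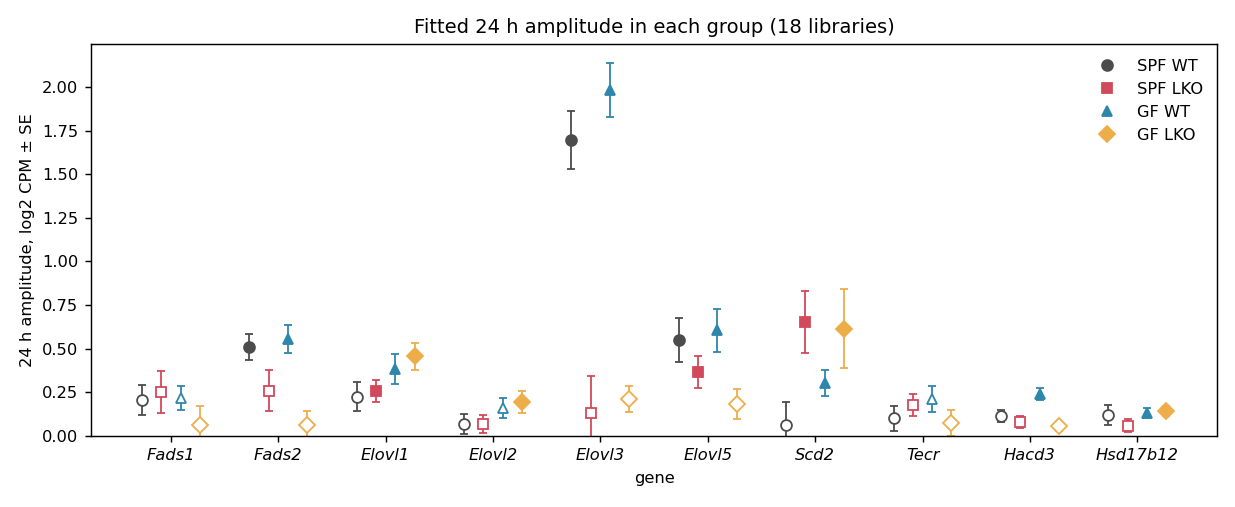
Amplitude of a 24 h cosine fitted to log2 CPM for each gene in each group, with bars for the standard error. Filled symbols passed the rhythm test within the group at an adjusted p of 0.05. WT points of Elovl3 stand at 1.70 and 1.98, its LKO points at 0.13 and 0.21, and the highest point of any other gene is 0.65, of Scd2 in SPF LKO.

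The genes whose pattern over the 24 means was most like that of Elovl3, among 13484, were Kynu and St3gal1 (Spearman's rho 0.942 for both) and Ccdc162 (0.939). Those most like Scd2 were Ptpn13 (0.917), Cdcp1 (0.901) and Mtmr11 (0.898). These are descriptions over means that share libraries, with no test.

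Other genes of the pathway were taken from lists, and the 3 with the largest fold change in each are named, with a few others chosen after their values were seen. Beside all list counts that follow stand the shares of all genes called higher and lower. They were 11.6% and 11.5% in SPF LKO and 15.6% and 15.2% in GF LKO. In GF against SPF mice they were 14.2% and 17.7% in WT and 18.1% and 18.4% in LKO. For the difference of genotype effects 0.438% of all genes passed. List counts were not tested against these shares. Of 10 further elongases and desaturases 5 were expressed enough to test, and in GF mice 1, Fads6, was higher (0.24 ± 0.07) and 2 were lower in LKO. Scd1, the main stearoyl-CoA desaturase of adult liver, had a log2 difference of -1.02 ± 0.15 there (adjusted p = 8.49e-07), opposite in sign to Scd2, and Elovl6, which extends palmitate, had -1.05 ± 0.18 (adjusted p = 1.12e-05), opposite to Elovl3. In SPF mice Fads6 was higher (0.30 ± 0.06) and Fads3 lower (-0.50 ± 0.17), and Scd1 had -0.22 ± 0.21 (adjusted p = 0.489). Between GF and SPF mice Degs1 was higher in WT (0.25 ± 0.05) and in LKO (0.22 ± 0.05), none was lower in WT, and Scd1 was lower in LKO (-0.63 ± 0.18).

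Of 7 tested enzymes of the elongation cycle and its electron donors, 1 was higher and 1 lower in SPF LKO and 1 higher and 2 lower in GF LKO, the higher one being Hacd2 (0.19 ± 0.06 and 0.24 ± 0.04), a paralog of Hacd3. Por, the P450 reductase, fell by 1.04 and by 1.93 on the log2 scale, and Cyb5a, the cytochrome b5 that feeds electrons to desaturases, fell by 0.35 in GF LKO. Cyb5r3, its reductase, was higher in GF mice by 0.36 ± 0.07 in WT and 0.31 ± 0.05 in LKO, and 3 of the 7 were higher and none lower in GF WT, with 2 higher and 1 lower in GF LKO. Of 8 genes of precursor supply, 1 was lower in SPF LKO and 4 in GF LKO, none higher. Of all genes, 11.5% and 15.2% were lower. Thrsp was at -1.20 ± 0.39 and -1.73 ± 0.35 in SPF and GF mice. In GF LKO, Me1, the malic enzyme that supplies NADPH, was at -1.65 ± 0.17 and Acacb at -1.24 ± 0.26. Without microbes 4 of these 8 were higher and none lower in WT, and 2 were higher and 1, Me1, lower in LKO.

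Peroxisomal shortening of very long chains, the opposite process, had 6 of 9 genes lower and 2 higher in LKO in either kind of mouse. Of all genes, 11.5% were lower and 11.6% higher in SPF LKO, and 15.2% lower and 15.6% higher in GF LKO. Acaa1b, a peroxisomal thiolase, fell by 0.80 and by 1.70 on the log2 scale and the transporter Abcd2 by 1.25 and by 2.35, in SPF and GF mice. In GF against SPF mice 1 of the 9 was higher in WT, and 1 was higher and 4 were lower in LKO.

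Of 11 genes of acyl-CoA activation and phospholipid incorporation, 1 was higher and 2 were lower in SPF LKO and 1 higher and 6 lower in GF LKO, with Mfsd2a, a carrier of lysophospholipids with docosahexaenoic acid, at -1.48 ± 0.36 and -2.29 ± 0.50 and Acsl1 at -0.60 ± 0.10 in GF LKO. In GF mice 5 were higher in WT, among them Acsl3 (0.43 ± 0.13), and 4 were higher and 2 lower in LKO. Of 4 tested ceramide synthases, Cers6 was lower in LKO (-0.73 ± 0.15 in SPF, -0.88 ± 0.12 in GF mice). In GF against SPF mice Cers2 was higher (0.22 ± 0.05 in WT) and Cers4 and Cers6 were lower. Of 12 transcription factors of lipid synthesis and their regulators, 1, Insig2, was higher in LKO (0.91 ± 0.18 and 1.13 ± 0.24) and 3 and 2 were lower in SPF and GF mice, with Ppara at -0.67 ± 0.11 and -0.80 ± 0.14 and Pparg at -0.43 ± 0.14 and -1.09 ± 0.19. Mlxipl, which encodes ChREBP, was lower in GF mice (-0.90 ± 0.12 in WT, -0.71 ± 0.15 in LKO), where 3 of the 12 were higher and 2 lower in WT and 4 were higher and 4 lower in LKO. In the test of whether the genotype difference changed with microbes, Me1 (-1.30 ± 0.24, adjusted p = 0.00103) and Acaa1b (-0.91 ± 0.17, adjusted p = 0.00115) passed, and no gene of the other lists. Of 18 clock genes, 4 were higher and 6 lower in SPF LKO, and of 17 tested in GF LKO 5 were higher and 6 lower. None differed between GF WT and SPF WT over all ZT, and of 16 tested in GF LKO against SPF LKO 1 was higher and 4 lower. These tests pool all ZT, so a change at single hours or in the timing of a rhythm need not show. At ZT2, Dbp had 6.47, 3.03 and 6.49 CPM in SPF WT and 0.98, 1.07 and 0.88 CPM in GF WT. No test at single hours is given for the clock genes.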

How the data were processed

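The authors sequenced poly(A) RNA from frozen liver (stranded kit, single-end reads), aligned it to mm10 (GRCm38) with STAR 2.6.1b and deposited counts per Ensembl gene from featureCounts 2.0.0, raw and not normalized. Columns were matched to the labels and no count column was left unused. Libraries were scaled by TMM and genes with low counts removed by filterByExpr within each fit, and edgeR 4.0.16 (R 4.3.3, quasi-likelihood test, Benjamini-Hochberg adjustment over all genes tested, threshold 0.05) was fitted to 36 libraries per pooled comparison, 72 for the difference of genotype effects, 12 per ZT, and 18 or 36 for a cosine and sine of 24 h. CPM and RPKM were computed from the counts with TMM library sizes. Nothing in the labels ties libraries to litters or cages, so p-values measure the spread between these libraries, and comparisons that share a group are not independent. DESeq2 1.42.0, RLE scaling, no filter, ZT as a covariate or as 6 levels, 1 fit of 24 means, a replicate block, leaving out each library and leaving out the 2 or 4 libraries that went against their labels were alternatives, of which the last was added for some tests after the data were seen. The scripts were tested on simulated counts. The members, the lists and the tests were chosen with earlier results of these data known. Named list genes are the 3 with the largest absolute log2 fold change in each list, and a few others, such as Fads6, Degs1, Hacd2 and Ppara, were chosen after their values were seen. The values of 1 list gene are not reported here. Rhythm was tested by regression on a 24 h cosine and not by the rank method of the study. Total counts of 17369927 to 22076113 per library gave at least 74 reads for each member in each library.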

Additional observations from a re-analysis of the deposited data

Results flagged for a closer look

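The difference in daily rhythm between LKO and WT, tested as the cosine and sine terms of ZT by genotype in edgeR, passed for Elovl3 in SPF mice (adjusted p = 0.000357) and in GF mice (adjusted p = 8.34e-09). In GF mice it also passed for Fads2 (adjusted p = 0.00997), Elovl5 (adjusted p = 0.00607) and Hacd3 (adjusted p = 0.0263), of which Elovl5 and Hacd3 did not pass with ZT as 6 levels (adjusted p = 0.0689 and 0.0797). These 5 results are listed because the effect of time differed between 2 groups by a test of the difference itself.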

How the results depend on the processing

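The counts of members called in the 4 pooled comparisons and in the difference of genotype effects stayed within 1.5 times the reported count under each alternative run. Among rhythm tests, ZT as 6 levels lost Scd2 in GF WT (adjusted p = 0.130) and GF LKO (adjusted p = 0.163) and Hsd17b12 in GF WT (adjusted p = 0.164). It left 1 of 3 members in SPF LKO (Elovl1 and Scd2 were lost) and 2 of 4 for the difference between genotypes in GF mice (Elovl5 and Hacd3 were lost). For that difference in SPF mice no filter, leaving out the 2 libraries labelled SPF LKO and leaving out all 4 gave 2 in place of 1. The difference between GF and SPF in LKO mice gave 1 in place of 0 by DESeq2 and with no filter. Of the tests at single hours, no filter gave 19 in place of 11 for genotype in SPF mice. For GF against SPF in WT mice DESeq2 gave 15, no filter 23 and the replicate block 4 in place of 7, and in LKO mice DESeq2 gave 11, no filter 15, 1 fit of 24 means 5, and leaving out the 2 or the 4 libraries 1, in place of 2. Leaving out single libraries gave 2 to 4 members for rhythm in GF LKO, 1 to 2 for its difference between genotypes in SPF mice, 0 to 1 for that between GF and SPF in LKO mice and 1 to 3 tests at single hours for GF against SPF in LKO mice. It moved the log2 difference of Tecr between genotypes in GF mice from -0.0393 to 0.0125, and the difference of genotype effects of Elovl1 from -0.000453 (without SPF WT ZT18 replicate 3) to 0.0944, neither of them called. Of 41 calls at single hours, 21 were lost when 1 library was left out: 3 of 11 and 10 of 21 for genotype in SPF and GF mice, and 6 of 7 and 2 of 2 for GF against SPF in WT and LKO mice. Pooled calls near the threshold were also lost in this way: in GF against SPF, Elovl1 in 17 and Elovl5 in 10 of 36 fits in WT mice, and Fads2 in 19 and Hacd3 in 21 in LKO mice. The rhythm of Scd2 was lost in 3 fits in SPF LKO, 10 in GF LKO and, without GF WT ZT18 replicate 3, in GF WT (adjusted p = 0.0608), that of Elovl2 in 7 in GF LKO, and the rhythm difference of Hacd3 in GF mice without GF WT ZT2 replicate 2 (adjusted p = 0.0518). With no filter, Fads2 and Hacd3 were lost in GF against SPF in LKO mice and Hacd3 in the rhythm difference in GF mice. The rhythm of Hsd17b12 was also lost with no filter, in GF WT (adjusted p = 0.185) and in GF LKO (adjusted p = 0.0655). ZT as a covariate added Elovl1 and Elovl5 in SPF and Elovl1 and Elovl2 in GF mice to the genotype calls. Replicate numbers did not pair the libraries: the median correlation of same-numbered deviations lay between -0.03 and 0.02 over the 4 comparisons, and 3 to 6 of 18 pairs exceeded 0.1. With ZT and the replicate block the pooled counts were 6, 8, 8 and 7 in place of 4, 6, 7 and 8. The cause of these changes was not tested.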

Other observations

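The 4 genes called in both genotype comparisons, Fads1, Fads2, Elovl3 and Scd2, are the 4 that lie on chromosome 19. Of all genes tested on chromosome 19, 24.7% (118 of 478) differed between LKO and WT in SPF mice and 31.2% (144 of 462) in GF mice, beside 23.1% and 30.8% of all genes. Between GF and SPF mice the shares on chromosome 19 were 29.1% in WT and 36.2% in LKO, beside 31.8% and 36.4% of all genes. The position was noticed after the calls were seen and was not tested.

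Over the 24 means of group and ZT, Spearman's rho was 0.807 between Elovl3 and Elovl5, 0.775 between Elovl3 and Scd2 and -0.598 between Fads2 and Scd2. These means share libraries between genes.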
